A study of Homo sapiens with 6 samples.

Results

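The genes of the nuclear mRNA export machinery (the TREX and TREX-2 complexes, the export receptor NXF1 with its NXT partners, cap-binding proteins and the factors that release mRNA at the cytoplasmic side of the pore) were examined in DLD-1 cells, a human colorectal cancer line. The set was a list of 32 gene symbols fixed by name, and a member was kept where its counts exceeded 1 CPM (read counts scaled to the same total in every library) in at least 3 libraries. All 32 were kept, of 16974 genes tested and 58051 in the count table. Total RNA was sequenced from 6 libraries of AID-NeonGreen-TPR cells, in which both TPR alleles carried an auxin-inducible degron (AID, a tag that lets auxin trigger degradation of the protein) and the fluorescent protein NeonGreen, and in which the TIR1 adaptor needed for that degradation was expressed from the RCC1 locus. The LMB group (3 libraries) received 200 nM Leptomycin B for 3 h, and the LMB+auxin group (3 libraries) received the same Leptomycin B, with 1 mM auxin added after the first hour and kept for the last 2 h, to deplete TPR. Leptomycin B, an inhibitor of the protein export receptor XPO1, was thus shared by both groups, and no library without it was analysed here. Both groups were cultures of the same engineered line, and the comparison addressed what differed 2 h after auxin while XPO1 was blocked. No cells without the degron were given auxin in the libraries analysed here, so an effect of auxin itself cannot be told apart from one of TPR loss.

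In the nucleus, an mRNA is packed with proteins while it is made. The THO complex and a UAP56-type helicase load adaptor proteins onto the transcript, the adaptors hand it to the NXF1-NXT heterodimer, and this receptor carries it through the nuclear pore complex independently of XPO1. TREX-2, built on the large scaffold protein GANP (gene MCM3AP), works at the nuclear basket, the fibrous structure on the inner face of the pore of which TPR is a main component. On the cytoplasmic face, the helicase DDX19 with its activator GLE1 strips export proteins from the mRNA so that it cannot slide back. The RNA here was extracted from whole cells, so the values are total transcript levels and hold nothing on where in the cell a transcript was, and in bulk RNA fewer cells carrying a transcript cannot be told apart from less of it per cell.

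Of the members, 8 form 4 pairs of related genes, and whether a read can be given to one gene of a pair depends on how alike their coding sequences are. For each pair, the most alike stretch of 60 coding bases that lies within 1 exon of each gene is shown, because this is where reads are hardest to tell apart. The sequences were read from the GRCh38 assembly on the coding strand, 5′ to 3′, and capitals mark the bases that differ within a pair.
CETN2: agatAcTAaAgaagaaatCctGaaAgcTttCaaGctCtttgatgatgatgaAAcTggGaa
CETN3: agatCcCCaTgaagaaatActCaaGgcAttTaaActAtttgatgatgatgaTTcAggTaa
NXT1: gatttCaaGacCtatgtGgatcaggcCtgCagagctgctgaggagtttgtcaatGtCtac
NXT2: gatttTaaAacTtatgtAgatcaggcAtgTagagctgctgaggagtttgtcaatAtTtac
DDX39A: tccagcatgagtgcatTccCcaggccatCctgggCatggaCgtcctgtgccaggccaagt
DDX39B: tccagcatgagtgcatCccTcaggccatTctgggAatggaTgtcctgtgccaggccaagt
DDX19A: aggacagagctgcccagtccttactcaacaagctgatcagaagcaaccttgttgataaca
DDX19B: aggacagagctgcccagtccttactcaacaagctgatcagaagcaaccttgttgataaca
The 8 stretches lie, in this order, at chrX:152828607-152828666 on the minus strand (exon 4 of CETN2), chr5:90399468-90399527 on the minus strand (exon 4 of CETN3), chr20:23354054-23354113 on the plus strand (exon 2 of NXT1), chrX:109538045-109538104 on the plus strand (exon 2 of NXT2), chr19:14412619-14412678 on the minus strand (exon 3 of DDX39A), chr6:31539215-31539274 on the minus strand (exon 3 of DDX39B), chr16:70356112-70356171 on the plus strand (exon 4 of DDX19A) and chr16:70315969-70316028 on the plus strand (exon 4 of DDX19B). Even in the most alike stretch, CETN2 and CETN3 differed at 15 of 60 bases, NXT1 and NXT2 at 8 and DDX39A and DDX39B at 5. DDX19A and DDX19B, neighbours on chromosome 16, differed at 0 of 60. Over the whole coding sequence, identity was 60.3% for the centrin genes, 74.2% for the NXT genes, 79.8% for the DDX39 genes and 95.1% for the DDX19 genes. The longest coding run that DDX19A and DDX19B share without a difference was 315 bases, and 430 of the 1338 windows of 100 coding bases in DDX19B also occur in DDX19A, so the split of counts between these 2 genes is uncertain. No window of 100 bases was shared in the other 3 pairs. A further protein-coding entry, ENSG00000260537, shares 63.2% of the windows of 100 bases in the canonical DDX19A transcript. For the canonical DDX19B transcript the share is 36.4%. The mean count of that entry was 1728.7, so the values of both DDX19 genes are uncertain for this reason too.

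Total counts ran from 28261903 to 35992425 per library, and member counts from 295 to 18612 per gene and library. Of 8 markers of colorectal epithelium, 7 exceeded 1 CPM in every library (EPCAM, CDH1, KRT8, KRT18, KRT19, CDX2 and VIL1), with a summed level of 7400 to 7734 CPM in LMB and 7475 to 7864 CPM in LMB+auxin, whereas CDX1 had at most 1 read. The 4 markers of blood, stromal and endothelial cells (PTPRC, COL1A1, COL1A2 and PECAM1) summed to 0.849 to 1.20 CPM in LMB and 0.860 to 1.15 CPM in LMB+auxin. Libraries with the same replicate number deviated together from their group means, and the 2 libraries numbered 2 stood apart from the other 4. Therefore each comparison was fitted without and with the replicate number as a block, the second fit being the paired one. TPR itself, whose protein and not its gene was targeted, read 163, 157 and 180 CPM in LMB and 192, 185 and 187 CPM in LMB+auxin. These levels did not overlap between groups, and the TPR transcript level was higher by 0.17 on the log2 scale (adjusted p = 0.954 without the block and 0.0136 in the paired fit, edgeR). XPO1, the target of Leptomycin B, differed by 0.02 on the log2 scale (SE 0.09).

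The transcripts of the export machinery were present at very different levels in these cells. To compare genes, CPM was divided by the kilobases of exon sequence annotated for each gene (CPM per kb). The adaptor ALYREF, which binds both the THO-UAP56 complex and NXF1, had the highest level at 114.6 to 128 CPM per kb over the 6 libraries. It was followed by the helicase DDX39B (UAP56) at 72.3 to 83.3 CPM per kb and by NCBP1, the large subunit of the nuclear cap-binding complex, at 33.5 to 40.3 CPM per kb. The export receptor NXF1 stood at 11.3 to 12.4 CPM per kb, and its 2 small partners at 13.1 to 15.7 (NXT1) and 6.01 to 7.41 CPM per kb (NXT2). At the low end were ZC3H18, a protein linking the cap complex to decay and export factors, at 3.58 to 4.39 CPM per kb and DDX19B at 2.27 to 3.07 CPM per kb.

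Most neighbours in this order did not differ beyond their spread. Of the 31 pairs of neighbours in the order, 25 had overlapping ranges over the 6 libraries, and 6 did not: ALYREF and DDX39B, DDX39B and NCBP1, NCBP1 and THOC7, DDX39A and POLDIP3, ZC3H14 and ZC3H18, and ZC3H18 and DDX19B. The order also depends on which length is used. With the canonical transcript in place of all annotated exons, 7 of the 8 highest members stayed among the 8 highest, DDX39B and ALYREF exchanged places, and SEM1, a small acidic protein shared by TREX-2 and the proteasome, moved from place 29 to place 3, since 10668 bases of exon are annotated for it but 458 in its canonical transcript. The order of NXF1 and NXT1 turned as well, since NXF1 stood at 16.9 to 18.6 CPM per kb with its longest and at 30.4 to 33.5 CPM per kb with its canonical transcript, while NXT1 stayed at 13.1 to 15.7 CPM per kb. With either the longest or the canonical transcript, THOC7 (52.9 to 60.7 CPM per kb) stood above NCBP1 (37.0 to 44.5 CPM per kb). ZC3H18 likewise stood above ZC3H14, at 8.32 to 10.2 and 5.80 to 6.60 CPM per kb with canonical transcripts. In the canonical order, NCBP1 was at place 8 and ZC3H18 at place 28.

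**Figure D1:**
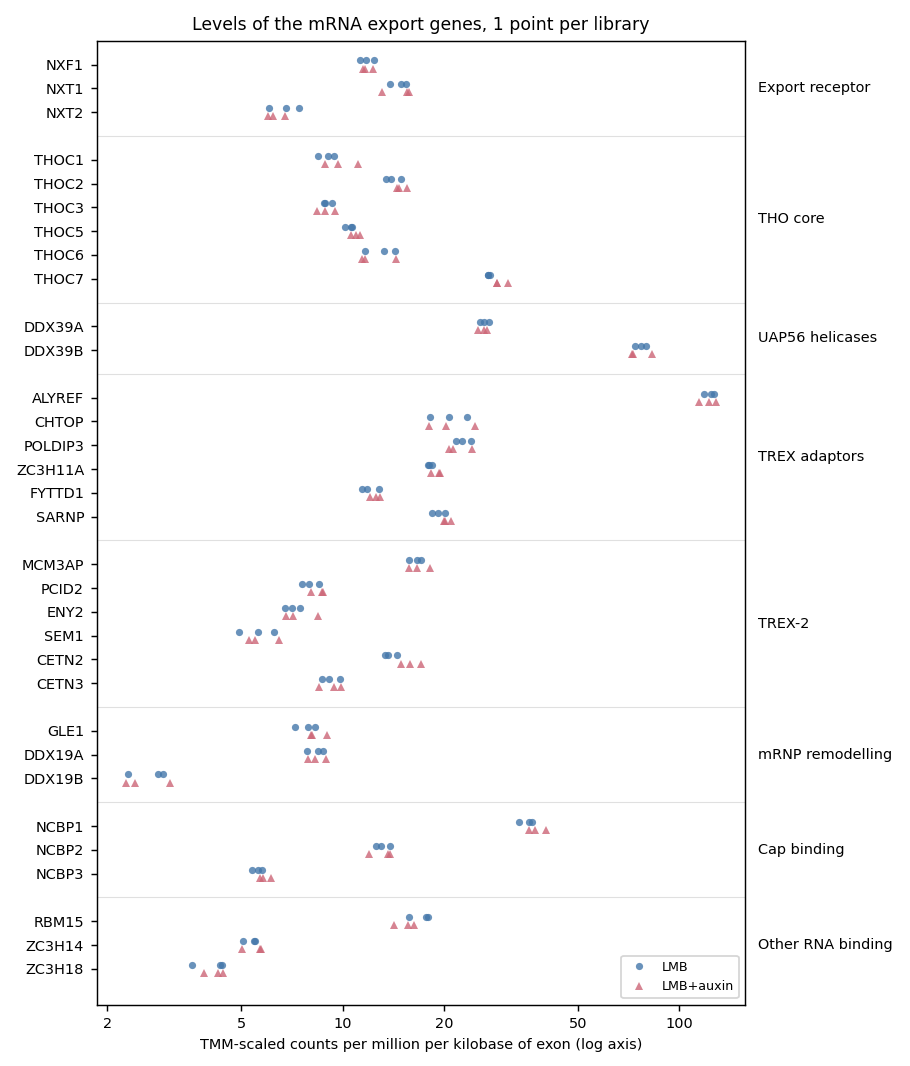
Level of each of the 32 export genes in the 6 libraries, in TMM-scaled CPM per kilobase of exon (horizontal log axis), with genes grouped by complex. Circles are LMB and triangles LMB+auxin libraries; ALYREF and DDX39B lie farthest to the right, DDX19B farthest to the left, and the 2 groups are intermingled for most genes.

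No member passed the call, which required an adjusted p below 0.05 and a change of at least 1.3-fold. The count was 0 of 32 in the fit without the block, where 1 of 16974 genes passed (0.00589%), and 0 of 32 in the paired fit, where 201 genes passed (1.18%). On unadjusted p below 0.05, the member count was 1 against 4.37% of all genes without the block, and 6 against 19.9% in the paired fit. On adjusted p alone, 1 member (CETN2) passed in the paired fit, beside 4.36% of all genes. The median log2 difference of the members between LMB+auxin and LMB was 0.03, beside -0.0027 over all genes tested. A total of 22 members had a positive and 10 a negative difference, within the range from -0.16 to 0.20. Over all genes tested, 8359 differences were positive and 8615 negative.

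The intervals limit how large any member change was. The 95% interval of the log2 difference lay inside a change of 1.3-fold in either direction (0.38 on the log2 scale) for 31 of the 32 members without the block. For all genes tested this was so for 57.1%. The exception was CETN2, whose interval ended at 0.39. In the paired fit all 32 member intervals lay inside this limit, beside 75.6% of all genes tested. Member levels varied little within a group: the median coefficient of variation among 3 libraries was 5.23% in LMB and 6.37% in LMB+auxin, compared with 7.98% and 9.45% for all genes tested. All genes tested include those just above the filter of 1 CPM, whereas the lowest member count was 295. For the 36 partner genes described below, the values were 5.34% and 5.59%, and 35 intervals lay inside the limit without the block.

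**Figure D2:**
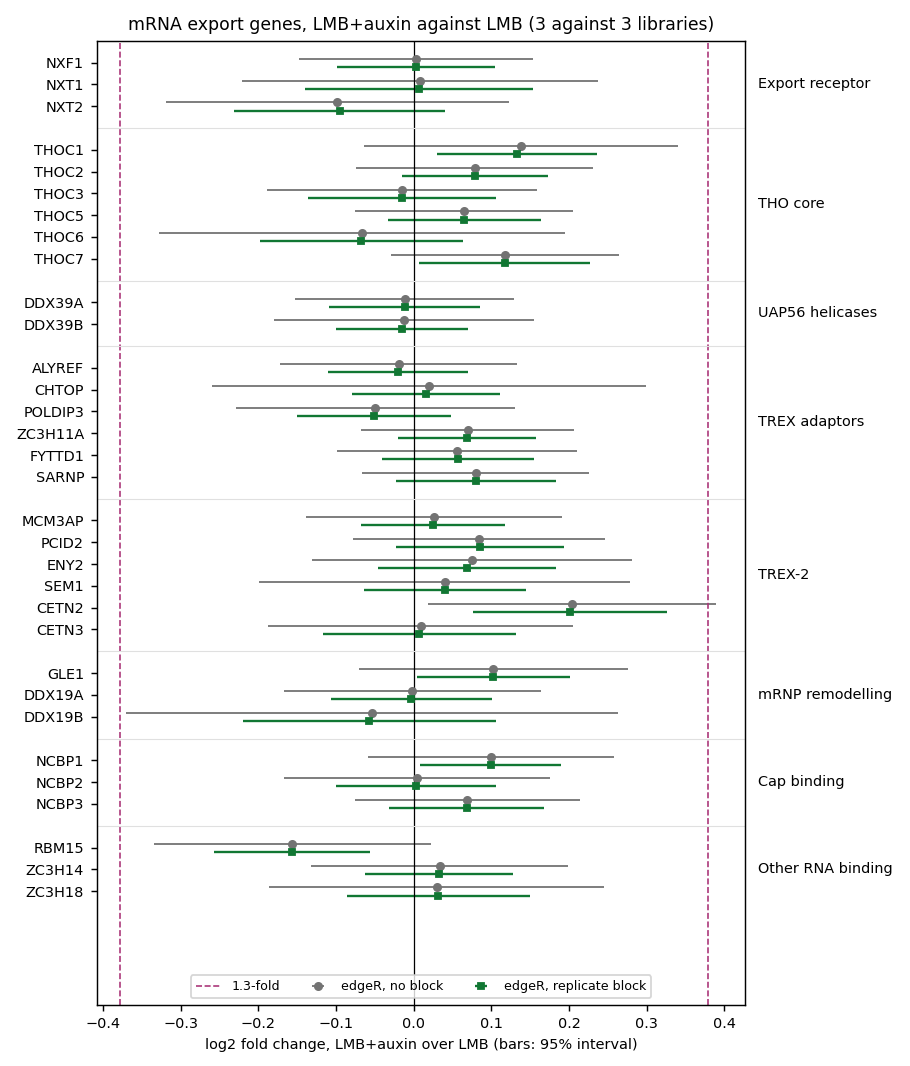
Log2 fold change of LMB+auxin over LMB (horizontal axis) for each export gene with its 95% interval, from the fit without the block (grey circles) and the paired fit (green squares), 3 libraries per group. Dashed lines mark a 1.3-fold change; every interval lies between them except that of CETN2 without the block.

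For the export receptor no difference was detectable. NXF1 read 69.7, 72.4 and 76.7 CPM in LMB and 71.2, 76.1 and 72.0 CPM in LMB+auxin, a log2 difference of 0.0028 with a 95% interval from -0.15 to 0.15. The groups overlapped fully. NXT1, the partner that stabilises NXF1, differed by 0.0081 (95% interval -0.22 to 0.24), and NXT2, its X-linked relative, by -0.10 (-0.32 to 0.12).

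In the THO core, 4 of 6 members had a positive difference and 2 a negative one, with a median of 0.07 on the log2 scale, and none passed the call. THOC7, a small subunit of the complex, had one of the 2 clearest separations among the members. It read 47.2, 48.0 and 47.3 CPM in LMB and 54.1, 50.4 and 50.2 CPM in LMB+auxin. Every LMB+auxin library was above every LMB library, and the means were 47.5 ± 0.452 and 51.6 ± 2.21 CPM (SD, n = 3). The difference was 0.12 on the log2 scale (SE 0.07, adjusted p = 0.954 without the block and 0.217 in the paired fit, edgeR).

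THOC1, the subunit also known as HPR1, read 73.1, 68.4 and 76.4 CPM in LMB and 89.9, 71.8 and 78.2 CPM in LMB+auxin. It was higher in all 3 pairs, but most of the difference came from the libraries numbered 1, and leaving out that LMB+auxin library reduced the log2 difference from 0.14 to 0.05. In the paired fit its adjusted p was 0.123 (edgeR). The largest subunit, THOC2, differed by 0.08 (95% interval -0.07 to 0.23) and THOC5 by 0.07 (-0.08 to 0.21). THOC3 and THOC6, both beta-propeller subunits, differed by -0.02 (-0.19 to 0.16) and -0.07 (-0.33 to 0.19). THOC3 values are uncertain, since 47.1% of the windows of 100 bases in its canonical transcript also occur in the pseudogene ENSG00000170089, whose own mean count was 34.3. THOC6 shares 14.0% of its exon bases with HCFC1R1 on the opposite strand, which differed by -0.21 on the log2 scale (adjusted p = 0.0884 in the paired fit, edgeR).

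The 2 UAP56-type helicases, which use ATP to load the adaptors, had differences close to 0. DDX39B read 539, 557 and 518 CPM in LMB and 507, 583 and 509 CPM in LMB+auxin, a log2 difference of -0.01 (95% interval -0.18 to 0.15). DDX39A, also called URH49, ran from 97.1 to 105 CPM over all libraries and differed by -0.01 (-0.15 to 0.13). The level of DDX39B per kilobase was 2.70 to 3.16 times that of DDX39A, and the groups overlapped in this ratio. It depends on the length used, and was 1.81 to 2.12 with the longest and 4.37 to 5.11 with the canonical transcripts. All 1582 windows of 100 bases in the canonical DDX39B transcript also belong to a readthrough gene, ATP6V1G2-DDX39B, whose own mean count was 14329.3, so the counts of the 2 entries cannot be told apart. The readthrough entry differed by -0.0041 between the groups.

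The 6 TREX adaptors, which bridge the mRNA to NXF1, had a median log2 difference of 0.04 with 4 positive and 2 negative values. ALYREF read 201, 188 and 197 CPM in LMB and 194, 181 and 203 CPM in LMB+auxin, a difference of -0.02 (95% interval -0.17 to 0.13). The groups overlapped, as they did for every other adaptor. CHTOP, an arginine-rich adaptor that also contacts an arginine methyltransferase, differed by 0.02 (-0.26 to 0.30). POLDIP3 (SKAR), a link to the exon junction complex, differed by -0.05 (-0.23 to 0.13), and FYTTD1 (UIF), an adaptor that can work beside ALYREF, by 0.06 (-0.10 to 0.21). SARNP (CIP29), a partner of UAP56, differed by 0.08 (-0.07 to 0.23) and the zinc finger protein ZC3H11A by 0.07 (-0.07 to 0.21). ZC3H11A shares 87.3% of its exon bases with ZBED6, a gene annotated on the same strand, which differed by 0.0055. SARNP shares 26.5% of its exon bases with the protein-coding entry ENSG00000257390, which differed by 0.04. In the canonical transcripts, 92.0% of the SARNP windows of 100 bases also occur in ENSG00000257390, and 98.3% of the ZC3H11A windows occur in ZBED6. The mean counts of ENSG00000257390 and ZBED6 were 3080.0 and 2012.8, so the values of SARNP and ZC3H11A are uncertain.

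All 6 TREX-2 members had a positive difference with TMM scaling, with a median of 0.06 on the log2 scale, and none passed the call. However, CETN3 was at -0.0019 with library size alone. In the pair of libraries numbered 3, only 2 of the 6 were higher in LMB+auxin, and the median log2 difference was -0.03. MCM3AP, encoding the scaffold GANP, read 151, 159 and 163 CPM in LMB and 150.3, 173 and 159 CPM in LMB+auxin. The groups overlapped, and the log2 difference was 0.03 with a 95% interval from -0.14 to 0.19. It shares 18.3% of its exon bases with the antisense gene MCM3AP-AS1, which differed by 0.03. PCID2, which binds the GANP scaffold, ran from 47.4 to 54.7 CPM and differed by 0.08 (-0.08 to 0.25). The PCID2 groups overlapped. PCID2 shares 7.0% of its exon bases with CUL4A on the opposite strand, which had a mean count of 5485.2 and also differed by 0.08. For CUL4A, every LMB+auxin library was above every LMB library. How much of the PCID2 value came from shared bases was not tested. ENY2, also a subunit of the SAGA coactivator, differed by 0.07 (-0.13 to 0.28), and SEM1 by 0.04 (-0.20 to 0.28).

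CETN2, a calcium-binding centrin of centrioles and DNA repair complexes as well as of TREX-2, had the largest difference of the members. The gene lies at chrX:152826994-152830757 on the minus strand, and its exons overlap no other gene. It read 25.7, 27.3 and 25.3 CPM in LMB and 32.3, 29.9 and 28.1 CPM in LMB+auxin, from 741 to 955 reads per library. All 3 LMB+auxin libraries were above all 3 LMB libraries, and the means were 26.1 ± 1.08 and 30.1 ± 2.10 CPM (SD, n = 3).

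The CETN2 change was 1.15-fold, with a 95% interval from 1.01 to 1.31-fold without the block and from 1.05 to 1.25-fold in the paired fit. Its adjusted p was 0.954 without the block and 0.0444 in the paired fit (edgeR). Without both libraries of number 1, 2 and 3, the log2 difference in the paired fit was 0.14, 0.24 and 0.23, with adjusted p of 0.246, 0.104 and 0.275 (edgeR) from the 2 pairs left in each case. In DESeq2 with the same block the adjusted p was 0.360. Its relative CETN3 ran from 26.9 to 30.3 CPM in LMB and from 26.2 to 30.5 CPM in LMB+auxin, with overlapping groups and a log2 difference of 0.0089 (95% interval -0.19 to 0.20). The ratio of CETN2 to CETN3 per kilobase was 1.48 to 1.54 in LMB and 1.68 to 1.75 in LMB+auxin, higher in each LMB+auxin library, a description of the 2 genes for which no test was made.

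Across all members, the LMB+auxin libraries were all above the LMB libraries for 2 of 32 (THOC7 and CETN2) and all below for 0 of 32. Over all genes tested these shares were 4.90% and 6.63%. The difference was positive in all 3 pairs for 9 members and negative in all 3 for 1 (RBM15), beside 21.4% and 20.5% of all genes tested.

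At the cytoplasmic face of the pore, GLE1 read 77.5, 89.0 and 85.1 CPM in LMB and 86.6, 96.6 and 86.9 CPM in LMB+auxin. It was higher in each pair while the groups overlapped, and the log2 difference was 0.10 (SE 0.08, adjusted p = 0.954 without the block and 0.230 in the paired fit, edgeR). GLE1 shares 15.9% of its exon bases with ENSG00000228395, a long noncoding RNA gene on the opposite strand. That gene read 6.72, 7.69 and 7.34 CPM in LMB and 9.56, 9.71 and 8.09 CPM in LMB+auxin, a log2 difference of 0.33 without the block (adjusted p = 0.954) and 0.32 in the paired fit (adjusted p = 0.0268, edgeR). Of the 3203 windows of 100 bases in the canonical GLE1 transcript, 3 also occur in transcripts of that gene. How much of the GLE1 value came from shared bases was not tested. The helicases DDX19A and DDX19B, whose ATPase GLE1 activates, differed by -0.0018 (95% interval -0.17 to 0.16) and -0.05 (-0.37 to 0.26). ENSG00000260537, the entry that shares sequence with both, differed by -0.04.

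The 3 cap-binding members had positive differences with a median of 0.07, although NCBP2 was at -0.0048 with upper-quartile scaling and at -0.0074 with library size alone. NCBP1 read 197, 184 and 202 CPM in LMB and 222, 198 and 205 CPM in LMB+auxin, which was higher in each pair, with overlapping groups. The difference was 0.10 on the log2 scale (SE 0.07, adjusted p = 0.954 without the block and 0.203 in the paired fit, edgeR). NCBP3, an alternative cap-binding subunit that can pair with NCBP1, differed by 0.07 (95% interval -0.08 to 0.21) and was also higher in each pair. NCBP2, the small subunit that contacts the cap, differed by 0.0040 (-0.17 to 0.18).

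RBM15, an RNA-binding protein that links the m6A methyltransferase and NXF1 to their targets, was the member with the largest negative difference. The gene lies at chr1:110338506-110346681 on the plus strand. It read 83.8, 73.6 and 82.4 CPM in LMB and 76.1, 66.3 and 72.9 CPM in LMB+auxin. It was lower in each of the 3 pairs, but the groups overlapped because the LMB library of number 2 fell between the LMB+auxin libraries. The difference was -0.16 on the log2 scale (SE 0.08), and the adjusted p was 0.954 without the block and 0.0530 in the paired fit (edgeR). Its paralogue RBM15B differed by -0.05 (SE 0.07). ZC3H14, a poly(A)-tail-binding protein, differed by 0.03 (95% interval -0.13 to 0.20) and shares 27.8% of its exon bases with EML5 on the opposite strand, at 0.03. ZC3H18 also differed by 0.03 (-0.19 to 0.25).

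**Figure D3:**
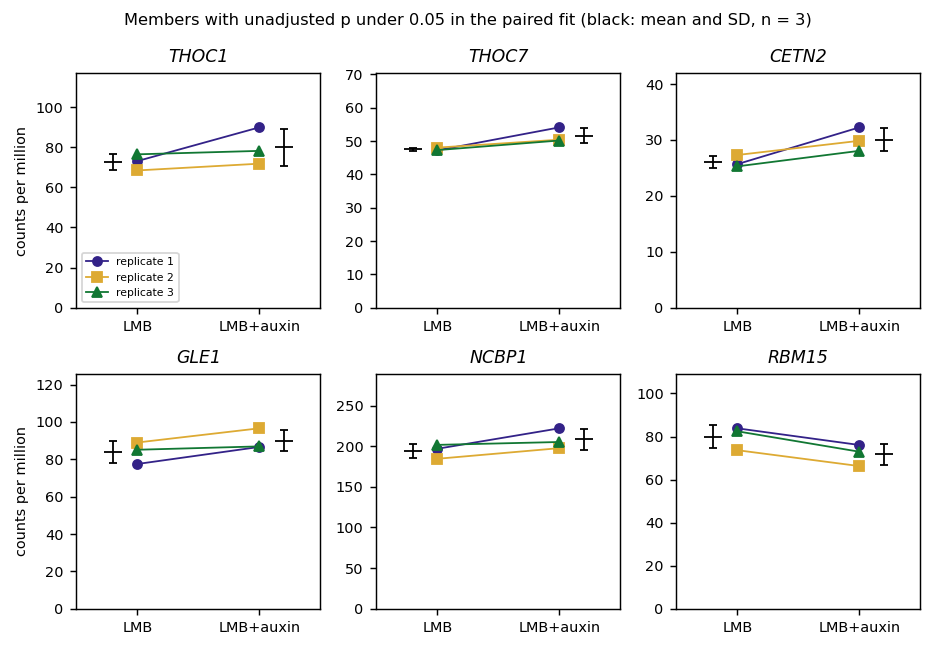
CPM in each library for the 6 members with an unadjusted p below 0.05 in the paired fit (vertical axes from 0), with lines joining libraries of the same replicate number and black bars showing the group mean and SD, n = 3. The lines rise for THOC1, THOC7, CETN2, GLE1 and NCBP1 and fall for RBM15 in all 3 pairs; the groups separate fully only for THOC7 and CETN2.

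Several members differed between replicate numbers. A test of differences between the 3 numbers, with the treatment in the model, passed an adjusted p of 0.05 for 10 of 32 members, or 31.2%, beside 33.7% of all genes tested (edgeR). The 10 were THOC1, THOC6, DDX39B, CHTOP, POLDIP3, SEM1, GLE1, DDX19B, RBM15 and ZC3H18. CHTOP was the clearest. It read 132 and 139 CPM in the libraries numbered 2, against 101 to 116 CPM in the other 4, which is 0.32 higher on the log2 scale (adjusted p = 5.08e-08, edgeR). Both treatments gave the same pattern.

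SEM1 read 66.6 and 69.1 CPM in the number 2 libraries and 52.4 to 59.6 CPM in the other 4, a difference of 0.26 on the log2 scale. THOC6 read 26.6 and 26.8 CPM there and 21.2 to 24.7 CPM elsewhere, likewise 0.26. DDX19B read 13.0 and 13.7 CPM there and 10.1 to 12.6 CPM elsewhere, 0.29 higher. In the other direction, ZC3H18 read 30.8 and 33.5 CPM there and 36.8 to 37.9 CPM elsewhere, a difference of -0.22, followed by THOC1 at -0.18 and RBM15 at -0.17. The members that differed by number did so both upwards (7) and downwards (3).

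Genes overlapping CHTOP followed the number in the same way: the antisense entries ENSG00000272030 and ENSG00000271853, which share 4.6% and 4.1% of its exon bases, were 0.34 and 0.35 higher in number 2. The ratio of DDX19A to DDX19B per kilobase was 2.56 to 2.70 in the number 2 libraries and 3.09 to 3.91 in the other 4. What set the number 2 libraries apart was not tested.

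**Figure D4:**
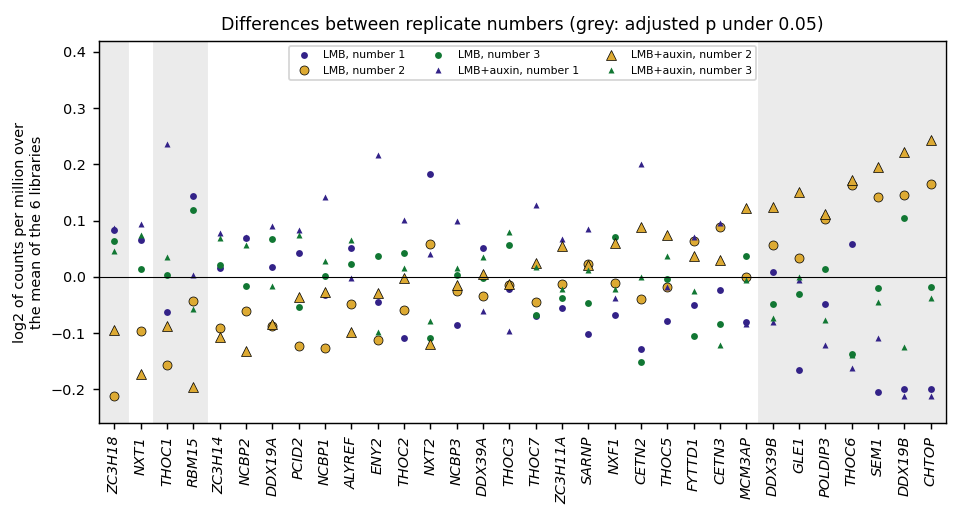
Log2 of the CPM in each library over the mean of all 6 libraries (vertical axis) for each export gene, ordered by the difference of the number 2 libraries from the others. Colours mark the replicate number, circles LMB and triangles LMB+auxin; grey bands mark the 10 genes with adjusted p below 0.05 between numbers, in which both number 2 libraries lie on the same side of 0.

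Genes that work next to the members were taken from a list of 41 partners (exon junction complex, SR proteins and other NXF1 adaptors, cap complex partners, transcription-coupled recruiters, NXF1 paralogues, pore docking proteins, poly(A)-binding proteins and nuclear surveillance factors). Of these, 36 passed the filter on low counts, and the 5 that did not were LUZP4, NXF2, NXF2B, NXF3 and NXF5. The call was passed by 0 of 36 in either fit, in which 0.00589% and 1.18% of all genes passed. On unadjusted p below 0.05 the count was 0 of 36 without the block (4.37% of all genes) and 6 of 36 in the paired fit (19.9% of all genes). On adjusted p alone, 0 of 36 passed in the paired fit, beside 4.36% of all genes. The median log2 difference of the partners without the block was 0.04, with 29 positive and 7 negative values. Over all genes tested it was -0.0027, with 8359 positive and 8615 negative values. The difference was positive in all 3 pairs for 16 partners and negative in all 3 for 1, beside 21.4% and 20.5% of all genes tested. Between replicate numbers, 16 of 36 partners differed (44.4%), beside 33.7% of all genes tested (adjusted p below 0.05, edgeR). The highest partner difference was that of NUP42, a GLE1-binding nucleoporin, at 0.14 (95% interval -0.20 to 0.48), and the lowest was that of RBM15B. NUP42 also differed by -0.40 between the number 2 libraries and the others.

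For scale, 4 targets of the aryl hydrocarbon receptor were read in the same libraries, and none of them passed the call without the block. They were picked as genes that can move with auxin itself, with earlier results of these data known, and are not a neutral yardstick. TIPARP, which encodes a repressor of that receptor, differed by 0.61 on the log2 scale (adjusted p = 0.261 without the block and 4.43e-19 in the paired fit, edgeR) and passed the call in the paired fit. CYP1B1 differed by 0.35 (adjusted p = 0.954 and 2.60e-07, edgeR) and stayed under 1.3-fold. CYP1A1 differed by 1.16 without the block and 1.19 in the paired fit (adjusted p = 0.644 and 0.181, edgeR), and AHRR by 0.16 (adjusted p = 0.954 and 0.0953, edgeR). The largest member difference in the paired fit, 0.20 for CETN2, was below 3 of these 4 values.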

How the data were processed

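The authors made ribosome-depleted TruSeq total RNA libraries from 3 replicates per treatment, aligned paired-end reads to GRCh38 with STAR (2.6.1c in the submitters' processing notes) and counted them per gene with featureCounts (1.5.2), and deposited raw counts, without normalization, for 58051 genes. Whether strand was used in counting, and how reads that match several genes were handled, is not given in the sources used here. Members, gene lists and tests were chosen with earlier results of these data known. Groups came from the labelled treatments.

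Genes above 1 CPM in at least 3 libraries were kept (16974). edgeR 4.0.16 (R 4.3.3) was run with TMM scaling and quasi-likelihood tests, Benjamini-Hochberg adjustment over all genes tested, and calls at adjusted p below 0.05 and at least 1.3-fold. CPM values are TMM-scaled, except for marker sums, which use library totals. p-values measure the spread between these 3 replicates. The replicate numbers were used as pairs because the correlations of deviations from the group means between same-numbered libraries were 0.53, 0.69 and 0.27 over 16974 genes; the biological coefficient of variation was 0.0989 without and 0.0406 with the block. Values of both fits are given where the block changed a call.

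Gene positions, exons and overlaps were taken from GENCODE 44, in which 98.1% of identifiers and all 32 members were found; it is a later release than the one counted. Members were always named, partners only at adjusted p below 0.05 or at either end of the list, overlapping genes only beside their member. Alternatives were other scalings, no filter, DESeq2 1.42.0, limma-voom (limma 3.58.1), removal of overlapping genes and leaving out each library. The fits were tested on simulated data in which all changes were larger than the 1.3-fold limit, so smaller changes were not examined there.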

Additional observations from a re-analysis of the deposited data

How the results depend on the processing

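No member and no partner passed the call under any of the 15 alternatives run (other scalings, no filter, DESeq2, limma-voom, the replicate block, removal of overlapping genes, and each library left out). The number of all genes called, 1 without the block, was 201 with the replicate block, 31 in DESeq2 with the block, 11 in DESeq2, 39 with no filter on low counts, 0 with library size alone and 0 to 5 with 1 library left out. The members' median log2 difference, 0.028 with 22 positive and 10 negative values, was 0.015 with library size alone (18 and 14) and 0.019 with upper-quartile scaling (19 and 13). It ran from 0.029 to 0.047 with 1 library left out, the highest being without LMB+auxin replicate 2. Member intervals inside a 1.3-fold change numbered 27 to 29 with 1 library left out, since fewer samples widen them.

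In the paired fit, the 1 member with adjusted p below 0.05 became 0 in DESeq2 with the replicate block and 0 without both libraries of number 2 or number 3. Without number 1 it was RBM15 (adjusted p = 0.0213, edgeR) and not CETN2, and with library size alone it became 2 members, CETN2 and RBM15 (adjusted p = 0.0489 and 0.0286). The paired fits without both libraries of a number, and the one with library size alone, were chosen after seeing the data. DESeq2 with the replicate block was planned. The cause was not tested. Between replicate numbers, 10 members (33.7% of all genes) became 3 in the DESeq2 likelihood ratio test (15.1% of all genes) and 16 with library size alone (38.3% of all genes).

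Of 480 recomputed member differences, 48 changed sign, 38 of them when 1 library was left out, and 16 of 32 members never changed sign. Among other settings, NXF1 was -0.0060 with upper-quartile scaling and -0.0095 with library size alone, NXT1 -0.00054 and -0.0031, NCBP2 -0.0048 and -0.0074, and CETN3 -0.0019 with library size alone. DDX19A was 0.0055 with DESeq2 size factors, 0.0054 in DESeq2 and 0.0045 in DESeq2 with the replicate block. With 1 library left out, log2 differences that changed sign ran from -0.029 to 0.040 (NXF1), -0.039 to 0.090 (NXT1), -0.056 to 0.027 (THOC3), -0.18 to 0.011 (THOC6), -0.027 to 0.015 (DDX39A), -0.081 to 0.025 (DDX39B), -0.052 to 0.024 (ALYREF), -0.11 to 0.12 (CHTOP), -0.030 to 0.072 (MCM3AP), -0.025 to 0.14 (ENY2), -0.055 to 0.14 (SEM1), -0.039 to 0.074 (CETN3), -0.050 to 0.039 (DDX19A), -0.19 to 0.031 (DDX19B), -0.032 to 0.068 (NCBP2), -0.051 to 0.083 (ZC3H18) and -0.073 to 0.094 (XPO1).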
